A study of Mus musculus with 7 samples.

Results

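The comparison described here sets 1 library from mouse neural cells exposed to deltamethrin against 1 library from unexposed control cells, 2 of the 7 libraries in the series. They were chosen by the treatment named in their titles, not by any measured value. The 5 other exposed libraries (chlorpyrifos, DDT, rotenone, carbaryl and imidacloprid) were used as the spread, since no treatment has a replicate library. In all 7 the cells were wild type, from the mouse embryonic stem line B6G-2. Ectoderm was made through embryoid bodies over 6 days, and neural progenitors were then grown in RHB-A medium with bFGF and EGF. At day 14 the progenitors were differentiated towards neurons and glia in BrainPhys with B27 and given an insecticide, or none, for 1 day before total RNA was taken. The labels call the tissue brain, although the cells are a culture of 1 stem cell line, and they give neither a dose nor a vehicle.

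Deltamethrin is a type II pyrethroid. Pyrethroids bind voltage-gated sodium channels and slow their closing, so that a nerve cell stays depolarised for longer, calcium enters and transmitter release changes. Type II pyrethroids have also been reported to act on GABA receptors and on chloride and calcium channels. The title of the series names glial differentiation as a marker of developmental neurotoxicity, which is the question behind exposing such a culture.

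The deposited tables list, for each library, the transcript structures found at each locus and their level in FPKM (fragments scaled to transcript length and library size), as transcript starts, transcript ends, skipped exons, retained introns and alternative exons. After repeated lines were dropped, the deltamethrin table held 91194 distinct events and the one for control held 90960, inside the range of 90522 to 92229 over the 7 libraries. In all, 103071 events were listed in at least 1 of the deltamethrin and control tables, 79083 of them in both, and 126309 in any library. Read counts were not used here and the depth is unknown, so no value carries a counting interval. With 1 library a group no difference has a replicate check or a p-value.

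A gene's level was taken as the mean of its summed start FPKM and summed end FPKM. Genes whose start and end totals differed widely, or whose mean level was under 1 FPKM over the 7 libraries, were set aside, which left 6345 of the 13402 genes with a start or end event. Among those set aside, 3111 were too low, 1680 had disagreeing sums, 2112 could be summed at the start alone and 154 at the end alone. Folds are differences of log2(FPKM + 1), deltamethrin minus control, and understate the change of low genes. A fold could be formed for 6309 genes listed above 0 in both libraries.

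Between deltamethrin and control, 103 of 6309 genes (1.63%) differed 2-fold or more, 41 higher (0.65%) and 62 lower (0.983%). The same count for the 5 other insecticides against the same control library was 101 to 125 genes (1.6% to 1.98%). Among the 15 pairs of exposed libraries it was 104 to 128 genes with a median of 115, and the 5 pairs that include deltamethrin gave 110 to 124. By this count the deltamethrin library was no farther from control than the exposed libraries were from one another. The median fold over all genes was 0.0032 on the log2 scale, and 50.7% of genes were higher with deltamethrin. Just inside the 2-fold limit were Prkcsh (log2 fold 1.02), Lamtor1 (1.02), Rbm8a (-1.03) and 4931406P16Rik (-1.01), and just outside it were Znhit6 (0.99), Rab28 (0.98), Snrnp35 (-0.99) and Btbd17 (-0.98).

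The higher and the lower genes differed in which of the libraries stood apart. Of the 41 higher genes, control lay below all 6 exposed libraries in 30, and deltamethrin lay above all 5 other exposed libraries in 17. In 5 of the 41, deltamethrin was beyond the other exposed libraries while control was within them. Of the 62 lower genes, deltamethrin lay below all 5 other exposed libraries in 42, and in 27 of these control was within their range. Control lay above all 6 exposed libraries in 26 of the 62. Over all genes, deltamethrin was the highest library in 13% and the lowest in 14.6%. The 2-fold rule uses both libraries, so these positions describe the genes and test nothing. They were not counted for the other insecticides, so they are not shown to be particular to deltamethrin.

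**Figure D1:**
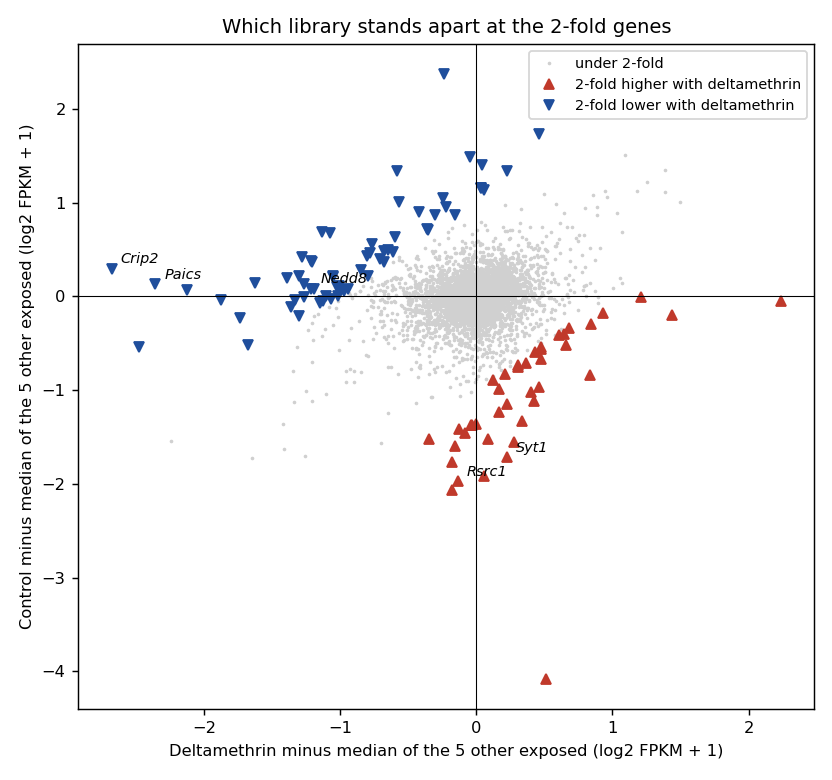
Each point is a gene, placed by its log2(FPKM + 1) with deltamethrin (horizontal axis) and in control (vertical axis), both minus the median of the 5 other exposed libraries, with the 41 genes 2-fold higher as upward triangles and the 62 genes 2-fold lower as downward triangles. Many upward triangles lie low on the control axis, as Syt1 does, while Paics and Nedd8 lie far to the left on the deltamethrin axis with control near 0.

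Among genes with a mean of 5 FPKM or more that were 2-fold higher and above all 6 other libraries, 8 could be named. Syt1, the calcium sensor of synaptic vesicle release, stood at 14.7 FPKM with deltamethrin, against 11.5 with chlorpyrifos, 12.9 with DDT, 12.3 with rotenone, 12.9 with carbaryl, 12.4 with imidacloprid and 3.07 in control. Its log2 fold of 1.95 therefore rested on a low control value, since all 6 exposed libraries were close together. Rac3, a small GTPase found in neurons, stood at 9.3 FPKM with deltamethrin, against 3.69 with chlorpyrifos, 5.25 with DDT, 4.01 with rotenone, 6.33 with carbaryl, 4.74 with imidacloprid and 3.67 in control (log2 fold 1.139). Here control lay near the lowest exposed library and deltamethrin was the one set apart.

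Igfbp4, a binding protein for insulin-like growth factors, had 210.2 FPKM with deltamethrin, against 102 with chlorpyrifos, 188 with DDT, 182 with rotenone, 197 with carbaryl, 108 with imidacloprid and 102 in control. Control, chlorpyrifos and imidacloprid were alike in Igfbp4, and the other libraries formed a higher group that deltamethrin topped. Anapc2, a cullin-like subunit of the anaphase-promoting complex, had 42.7 FPKM with deltamethrin, against 27.1 to 39.9 with the other insecticides and 18.7 in control, and Prkcsh, the beta subunit of glucosidase II, had 60.04 FPKM with deltamethrin, against 29.4 to 57.2 with the other insecticides and 29.1 in control. The remaining higher genes were Ankrd54 (log2 fold 1.42), Tbc1d17 (1.18), a Rab GTPase-activating protein, and Spsb3 (1.03), a SOCS box protein.

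In the opposite direction 29 genes met the same conditions, and the 10 with the lowest folds are named. Paics, a bifunctional enzyme of purine synthesis, stood at 18.8 FPKM with deltamethrin, against 104 with chlorpyrifos, 101 with DDT, 44.0 with rotenone, 100.5 with carbaryl, 98.3 with imidacloprid and 109.9 in control (log2 fold -2.49). Only rotenone shared part of that low level. The low level was seen at both ends of the gene, with 18.9 FPKM at its end event with deltamethrin, against 109.7 FPKM in control.

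Serinc1, a membrane protein of the serine incorporator family, had 7.82 FPKM with deltamethrin, against 32.3 with chlorpyrifos, 9.4 with DDT, 23.0 with rotenone, 8.52 with carbaryl, 7.93 with imidacloprid and 52.8 in control (log2 fold -2.61). Crip2, a LIM domain protein, had 8.27 FPKM with deltamethrin, against 58.3 with chlorpyrifos, 74.7 with DDT, 62.6 with rotenone, 9.49 with carbaryl, 10.1 with imidacloprid and 71.6 in control (log2 fold -2.97). In both genes the libraries fell into a high and a low group, with deltamethrin the lowest member of the low group and control in the high group. Mesd, a chaperone of LDL receptor-related proteins, had 7.99 FPKM with deltamethrin, against 15.3 with chlorpyrifos, 32.1 with DDT, 18.5 with rotenone, 53.6 with carbaryl, 55.3 with imidacloprid and 31.2 in control (log2 fold -1.84), and its values were spread over the whole range.

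Foxj1, the transcription factor that drives the motile cilia programme, had 1.69 FPKM with deltamethrin, against 4.66 with chlorpyrifos, 6.59 with DDT, 2.96 with rotenone, 7.8 with carbaryl, 4.49 with imidacloprid and 8.07 in control (log2 fold -1.75). Nlgn3, a postsynaptic adhesion protein, had 2.96 FPKM with deltamethrin, against 6.54 to 10.5 with the other insecticides and 10.3 in control. In the deltamethrin library Nlgn3 had 5.92 FPKM at its start and was listed at 0 at its end, against 9.02 and 11.6 FPKM in control, so that its fold of -1.52 is mainly a difference at the end. Eps15, an endocytic adaptor, had 3.72 FPKM with deltamethrin, against 8.97 to 12.1 with the other insecticides and 13.1 in control.

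The other lower genes were Tmem106c, a transmembrane protein, with 3.67 FPKM with deltamethrin, against 12.7 to 16.8 with the other insecticides and 12.3 in control, Pnpla8, a phospholipase, with 3.51 FPKM with deltamethrin, against 4.9 to 10.5 with the other insecticides and 12.4 in control, and Zfp330, a zinc finger protein, with 7.26 FPKM with deltamethrin, against 9.44 to 24.4 with the other insecticides and 23.8 in control. Deltamethrin was the lowest library in all 3 by the rule that named them.

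**Figure D2:**
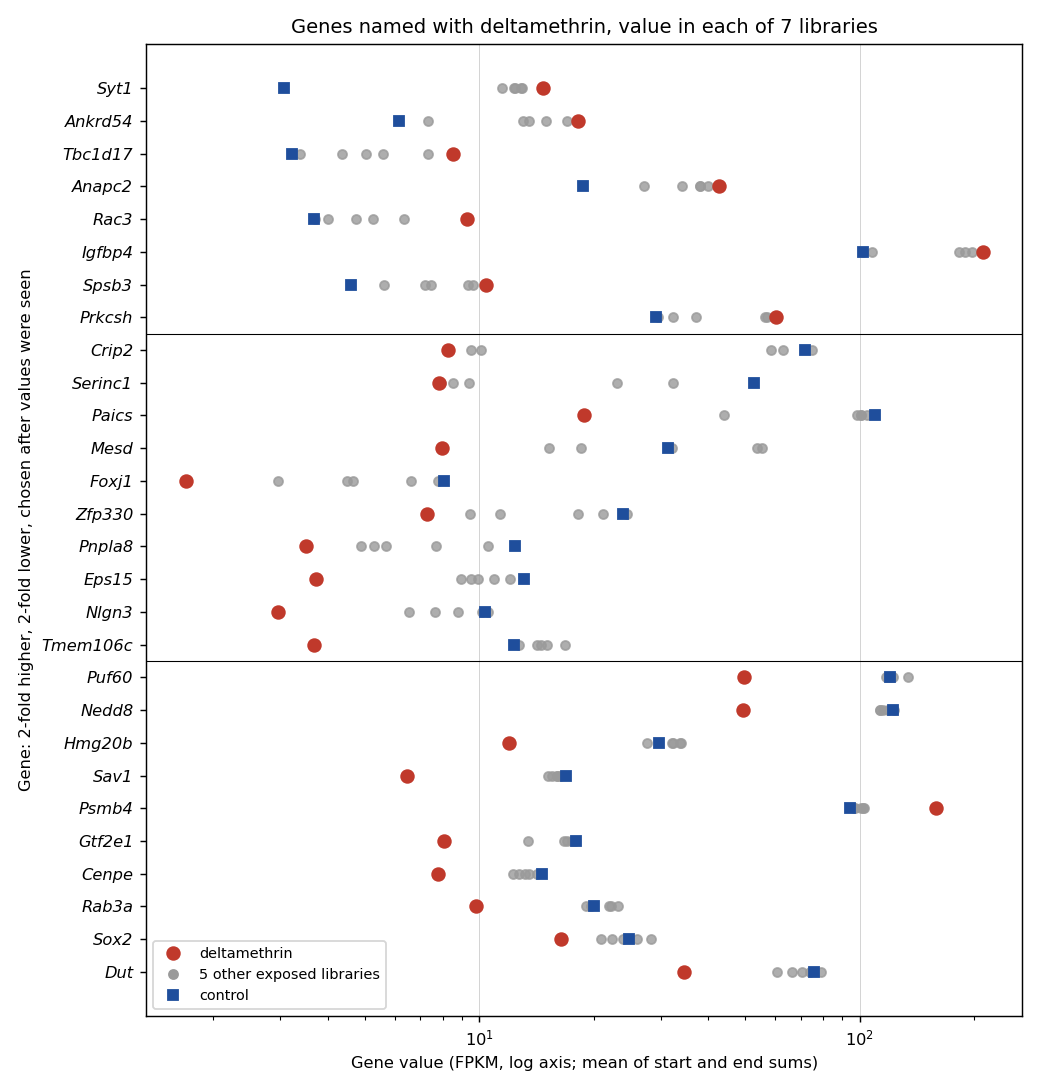
The plot of the named genes shows FPKM on a log axis for each of the 7 libraries, with deltamethrin, the 5 other exposed libraries and control as separate marks and 1 row per gene. In Syt1 the control mark (3.07 FPKM) is apart, whereas in Eps15 and Tmem106c the deltamethrin mark (3.72 and 3.67 FPKM) is apart from the 6 others.

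A second measure asked how far the deltamethrin library lay outside the range of all 6 other libraries, control included. By 1.5-fold or more, 46 of 6345 genes (0.725%) lay outside it, 6 above (0.0946%) and 40 below (0.63%), 3 of the 40 being listed at 0. Taken the same way, each other exposed library had 6 to 11 genes above and 34 to 49 below, and control had 4 above and 30 below. Deltamethrin was within that spread, and more genes below than above was a feature of every library.

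Of the genes with a mean of 5 FPKM or more, 7 lay 2-fold or more below the 6 other libraries, namely Paics, Eps15 and Tmem106c above and Puf60, Nedd8, Hmg20b and Sav1, which are named after their values were seen. Nedd8, a ubiquitin-like protein that is joined to cullins, stood at 49.2 FPKM with deltamethrin, against 115 with chlorpyrifos, 119 with DDT, 123 with rotenone, 113 with carbaryl, 113 with imidacloprid and 122 in control (log2 fold -1.29). The 6 other libraries were within a narrow band and deltamethrin was apart from all of them. Nedd8 has a single start event and a single end event under its name in these tables. Lines deposited under the name of a neighbouring gene do not enter its value. Sav1, a scaffold of the Hippo kinase pathway, had 6.44 FPKM with deltamethrin, against 16.0 with chlorpyrifos, 16.0 with DDT, 15.5 with rotenone, 16.3 with carbaryl, 15.2 with imidacloprid and 16.9 in control (log2 fold -1.27), with the same arrangement.

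Puf60, a splicing factor that binds near the 3′ splice site, had 49.5 FPKM with deltamethrin, against 117 to 134 with the other insecticides and 120.05 in control (log2 fold -1.26), and both its start total (57.3 FPKM) and its end total (41.7 FPKM) were low with deltamethrin. Hmg20b, a subunit of the CoREST histone demethylase complex, had 11.9 FPKM with deltamethrin, against 27.6 to 33.9 with the other insecticides and 29.7 in control (log2 fold -1.25). In both the other 6 libraries overlapped one another and deltamethrin stood below.

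Genes with 1 start and 1 end event give the plainest values. Of 1611 such genes, 14 (0.869%) differed 2-fold from control with deltamethrin, against 10 to 16 with the other insecticides. Among the genes with more structures, 89 of 4698 (1.89%) did so. The 1 gene of simple structure and at least 5 FPKM that lay 1.5-fold above the others was Psmb4, a subunit of the proteasome core, at 158 FPKM with deltamethrin, against 96.4 with chlorpyrifos, 101 with DDT, 102 with rotenone, 97.2 with carbaryl, 103 with imidacloprid and 94.1 in control (log2 fold 0.74). Those 1.5-fold below were Nedd8, Sav1, Gtf2e1, a subunit of the general transcription factor TFIIE, and Cenpe, the kinetochore kinesin. Gtf2e1 had 8.05 FPKM with deltamethrin, against 13.5 to 17.9 with the other insecticides and 17.9 in control, and Cenpe had 7.8 FPKM with deltamethrin, against 12.2 to 14.2 with the other insecticides and 14.6 in control. These genes too were named after their values were seen.

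Sodium channel genes, which include those of the known targets of pyrethroids, gave few usable values. Of 15 listed genes 1 passed the filters, 5 were under the minimum, 3 had totals that disagreed or were held at the start only, and 6 had no event under their name (among them Scn4a, Scn7a, Scn10a, Scn11a and Scn4b). The gene that passed, Nalcn, encodes a sodium leak channel and not one of the voltage-gated channels that pyrethroids bind. Nalcn had 1.78 FPKM with deltamethrin, against 1.07 to 1.43 with the other insecticides and 0.626 in control. The low control value came from its start event (0.117 FPKM), while its end event had 1.78 FPKM with deltamethrin and 1.13 FPKM in control.

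Scn3a, an alpha subunit of the developing brain, was listed at 0 at both ends with deltamethrin, and had 1.07 FPKM at its start and 2.93 FPKM at its end in control. A listed 0 does not show that its RNA was low. Scn8a, the main alpha subunit of mature axon initial segments, had a start total of 3.37 FPKM with deltamethrin and 4.86 FPKM in control. Scn3b, an auxiliary beta subunit, had a start total of 7.18 FPKM with deltamethrin and 6.23 FPKM in control. Scn1a, Scn2a, Scn9a and Scn2b had totals under 1 FPKM in both libraries. Values with the other insecticides are not given for these Scn genes, so no comparison with that spread is made. With 1 usable gene, the leak channel, no direction is given for the channel family.

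Ligand-gated channels were better covered. Of 27 listed GABA and glutamate receptor genes 9 passed the filters, 5 higher and 4 lower with deltamethrin than in control, none of them 2-fold (background 1.63%). Their median log2 fold was 0.10, above the range of -0.19 to -0.04 of the 5 other insecticides, and the median over all genes was 0.0032. Gabra5, the alpha 5 subunit of GABA-A receptors, had 2.12 FPKM with deltamethrin, against 1.21 to 1.68 with the other insecticides and 1.52 in control. Gabrb2, a beta subunit, had 2.45 FPKM with deltamethrin, against 0.134 to 2.01 with the other insecticides and 2.07 in control. Gabra3, an alpha subunit, went the other way with 1.3 FPKM with deltamethrin, against 1.57 to 2.38 with the other insecticides and 2.16 in control. The members were therefore mixed, with deltamethrin the highest of the 7 libraries in 3 of 9 and the lowest in 1.

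Potassium channels gave 6 usable genes of 18, 5 higher and 1 lower, with a median log2 fold of 0.02. Kcnk2, a tandem pore leak channel, was 2-fold higher at 5.16 FPKM with deltamethrin, against 3.46 to 10.9 with the other insecticides and 1.27 in control (log2 fold 1.44), a case in which control was the library set apart. The 1 usable calcium channel gene of 17, Cacna1c, a pore subunit of L-type channels, had 1.17 FPKM with deltamethrin, against 0.978 to 1.5 with the other insecticides and 2.52 in control, and again control was outside the exposed range. Among 14 usable genes of the sodium pump and intracellular calcium handling, 8 were higher and 6 lower with none 2-fold, and Calm2, one of the calmodulin genes, had 292 FPKM with deltamethrin, against 235 to 269 with the other insecticides and 263 in control.

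Depolarisation and calcium entry are known to induce immediate early genes. Of 18 listed, 6 passed the filters, and 5 were higher and 1 lower with deltamethrin than in control, with a median log2 fold of 0.19. This was inside the range of the 5 other insecticides (0.07 to 0.36). Set against the median of the 6 other libraries instead of control alone, the median was -0.07, so the direction turned. Egr1, a zinc finger transcription factor of this class, had 17.7 FPKM with deltamethrin, against 14.6 to 23.4 with the other insecticides and 14.0 in control. Fos had 3.26 FPKM with deltamethrin, against 2.53 to 4.74 with the other insecticides and 2.66 in control, and Nr4a3, an orphan nuclear receptor, had 1.39 FPKM with deltamethrin, against 0.932 to 1.75 with the other insecticides and 0.582 in control. Arc, a synaptic plasticity gene, had 5.7 FPKM with deltamethrin, against 6.05 to 6.4 with the other insecticides and 5.34 in control.

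The other target genes of calcium and CREB gave 6 usable members of 12 with a median log2 fold of -0.01, 2 higher and 4 lower. Sik1, a kinase that CREB induces, was 2-fold higher at 2.81 FPKM with deltamethrin, against 0.633 to 2.43 with the other insecticides and 0.884 in control, above every other library. Genes of synaptic vesicles and release had 14 higher and 6 lower of 20. Their median log2 fold was 0.09, inside the range of the other insecticides (0.06 to 0.20). Of the 20 genes, 2 were 2-fold higher, beside 0.65% of all genes. Those were Syt1 and Syn3, a synapsin, at 1.98 FPKM with deltamethrin, against 1.04 to 1.89 with the other insecticides and 0.155 in control, and in both control was the lowest library. Rab3a, the GTPase of synaptic vesicles, had 9.81 FPKM with deltamethrin, against 19.0 to 23.2 with the other insecticides and 20.1 in control (log2 fold -0.96), and Rims1, an active zone scaffold, was listed at 0 with deltamethrin and had 0.777 FPKM in control.

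Stress genes were examined by pathway. NRF2 targets, the antioxidant genes, had 12 higher and 4 lower of 16 with a median log2 fold of 0.09, above the range of the other insecticides (-0.02 to 0.07), and none 2-fold. Pir, a nuclear iron-binding protein, had 3.35 FPKM with deltamethrin, against 2.06 to 2.69 with the other insecticides and 2.36 in control, and G6pdx, the first enzyme of the pentose phosphate path, had 15.1 FPKM with deltamethrin, against 8.57 to 19.0 with the other insecticides and 8.94 in control. Hmox1, which breaks down haem, had 26.1 FPKM with deltamethrin, against 19.1 to 31.0 with the other insecticides and 19.8 in control, so the exposed libraries overlapped deltamethrin in these last 2 genes.

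Genes of the integrated stress response, which follow the transcription factor ATF4, had 10 higher and 2 lower of 12 with a median log2 fold of 0.17, inside the range of -0.01 to 0.48 of the other insecticides. Against the median of the 6 other libraries this median was -0.01. Chac1, which degrades glutathione, had 4.42 FPKM with deltamethrin, against 2.49 to 8.49 with the other insecticides and 2.1 in control, and Vldlr, a lipoprotein receptor, had 6.94 FPKM with deltamethrin, against 6.64 to 9.12 with the other insecticides and 4.28 in control. Gdf15 was listed at 0 with deltamethrin and had 0.895 FPKM in control. The unfolded protein response had 7 higher and 8 lower of 15 with a median log2 fold of 0.00, and heat shock chaperones 6 higher and 4 lower of 10 with a median of 0.03.

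Targets of p53 had 10 higher and 3 lower of 13, a median log2 fold of 0.14 inside the range of the other insecticides (0.04 to 0.18), and none 2-fold. Bbc3, which encodes the pro-apoptotic protein PUMA, had 12.1 FPKM with deltamethrin, against 7.03 to 10.6 with the other insecticides and 7.7 in control, and Cdkn1a, the cyclin-dependent kinase inhibitor p21, had 79.6 FPKM with deltamethrin, against 62.8 to 79.2 with the other insecticides and 61.0 in control. Both were highest with deltamethrin, Cdkn1a by a margin smaller than the spread of the other exposed libraries. Rps27l, a ribosomal protein paralogue, was lower at 190.2 FPKM with deltamethrin, against 258 to 279 with the other insecticides and 280.03 in control (log2 fold -0.56). The apoptosis machinery gave 3 higher and 3 lower of 6 with a median of -0.01, below the range of the other insecticides (0.02 to 0.08).

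Genes of xenobiotic metabolism were mostly not measurable, with 8 of 30 usable and 14 with no event under their name. Gstm5, a glutathione transferase, had 20.8 FPKM with deltamethrin, against 12.1 to 26.6 with the other insecticides and 13.7 in control. Aldh3b1, an aldehyde dehydrogenase, had 3.96 FPKM with deltamethrin, against 1.92 to 2.61 with the other insecticides and 2.88 in control, and the 8 genes divided into 4 higher and 4 lower.

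**Figure D3:**
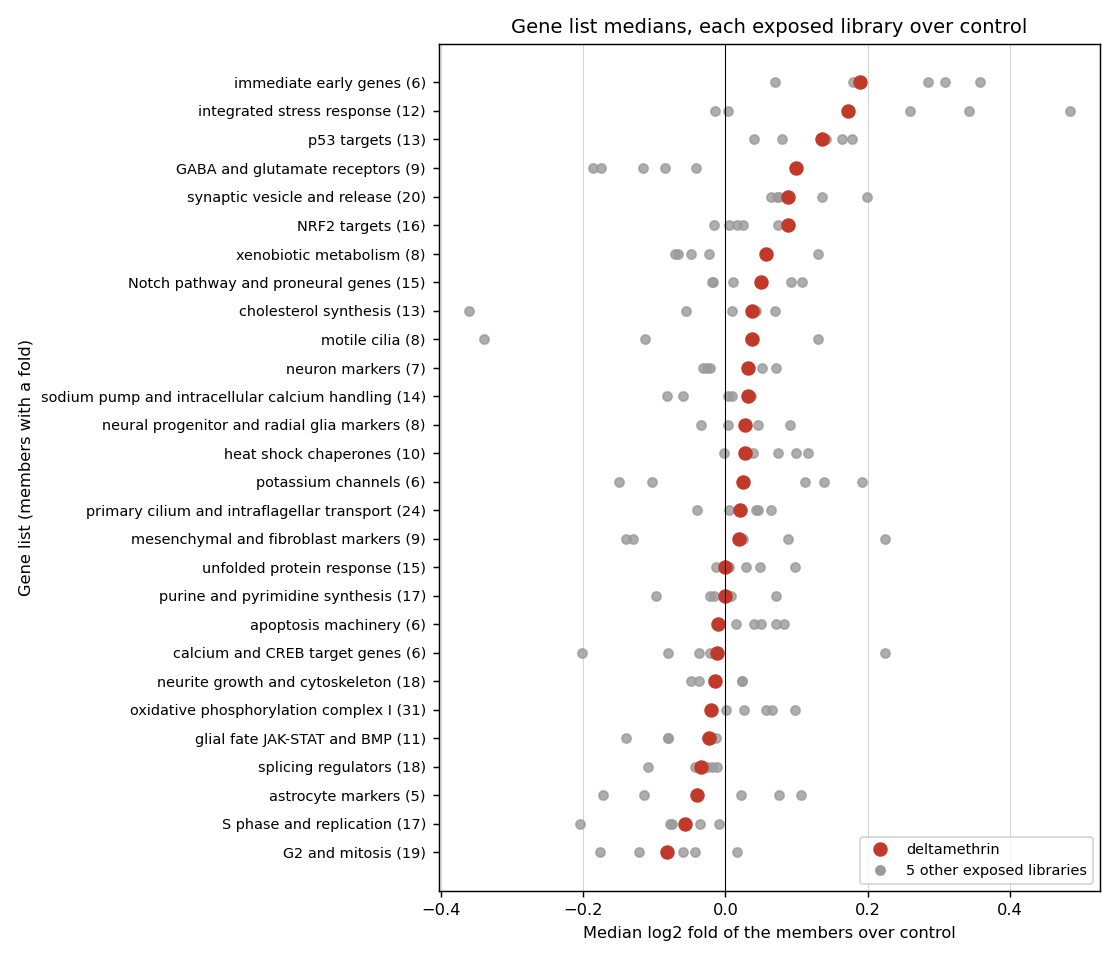
The plot of gene group medians gives, for each group with 5 or more usable genes, the median log2 fold against control (horizontal axis) for deltamethrin and for each of the 5 other exposed libraries. Deltamethrin medians lay between -0.08 and 0.19 over 28 groups, and in 4 of the 28 the deltamethrin mark was beyond all 5 others. That count was not made for the other insecticides, so the 4 groups are not shown to be particular to deltamethrin. Marks of other libraries were also beyond the rest, as with DDT in cholesterol synthesis (-0.36) and the integrated stress response (0.48).

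Subunits of respiratory complex I, the NADH dehydrogenase of mitochondria, were as a group near the control level, with 13 higher and 18 lower of 31, a median log2 fold of -0.02 and none 2-fold. All 5 other insecticides had higher medians, from 0.00 to 0.10. In 13 of the 31 (41.9%) deltamethrin was the lowest of the 7 libraries, against 14.6% of all genes and 20.4% of genes with a mean of 50 FPKM or more. The same count was 0 to 5 for each of the other exposed libraries and 5 for control. Starts gave 12 and ends 13 such genes, 12 of them in both, and the deltamethrin library was lower than the next by more than 0.1 on the log2 scale in 5 genes. The summed level of the 31 was 2466 FPKM with deltamethrin, 2426 to 2688 with the other insecticides and 2384 in control. Against the median of the 6 other libraries, the group median was -0.035 for deltamethrin and -0.040 for control. Other libraries had such groups too, as DDT was the lowest in 11 of 13 cholesterol synthesis genes (84.6%).

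Ndufs8, an iron-sulfur subunit of the peripheral arm, had 42.7 FPKM with deltamethrin, against 63.2 to 72.3 with the other insecticides and 68.5 in control. Its start total was 49.96 FPKM and its end total 35.4 FPKM with deltamethrin. Ndufs7, another iron-sulfur subunit, had 32.8 FPKM with deltamethrin, against 45.2 to 57.6 with the other insecticides and 50.5 in control, with 47.3 FPKM at its start and 18.3 FPKM at its end with deltamethrin, so that most of its deficit was at the end. Ndufs3, a core subunit of the same arm, had 28.7 FPKM with deltamethrin, against 36.8 to 43.4 with the other insecticides and 33.5 in control.

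Ndufs6 had 64.2 FPKM with deltamethrin, against 71.8 to 82.8 with the other insecticides and 79.5 in control, and Ndufv3, an accessory subunit of the NADH-binding module, had 59.1 FPKM with deltamethrin, against 70.5 to 87.2 with the other insecticides and 73.3 in control. Ndufv1, which binds NADH, had 23.0 FPKM with deltamethrin, against 38.2 to 63.5 with the other insecticides and 24.5 in control, where control was nearly as low as deltamethrin. The 2 members with the largest folds, Ndufa6 at 73.7 FPKM with deltamethrin, against 50.1 to 78.4 with the other insecticides and 38.4 in control and Ndufa12 at 152 FPKM with deltamethrin, against 83.0 to 157 with the other insecticides and 81.8 in control, were instead higher with deltamethrin and lay inside the exposed range. Ndufa10, an accessory subunit, had 53.5 FPKM with deltamethrin, against 45.9 to 52.8 with the other insecticides and 33.2 in control. Ndufs7, Ndufs3, Ndufs6, Ndufv3 and Ndufv1 were named after their values were seen.

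**Figure D4:**
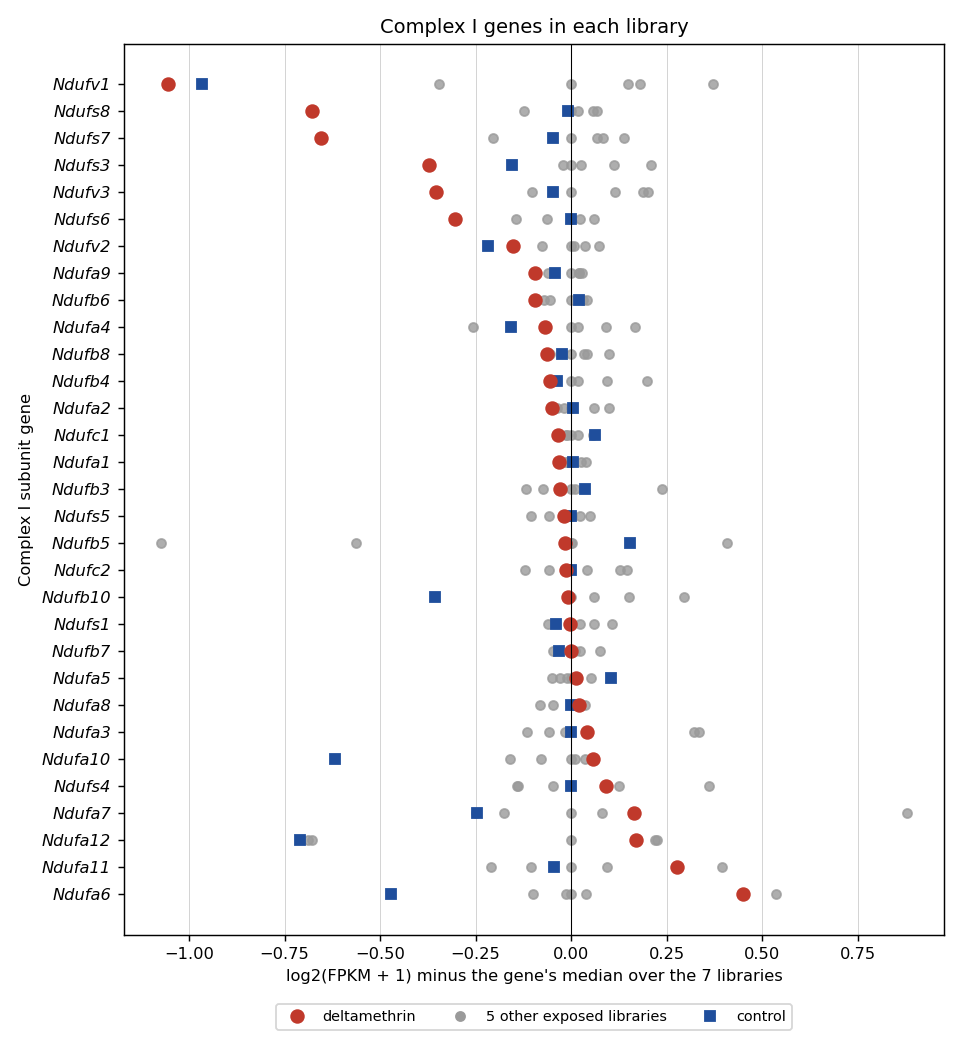
The plot of complex I shows, for each of the 31 usable subunits, the log2 difference of each library from the median of the 7 libraries, with deltamethrin, the 5 other exposed libraries and control as separate marks. Deltamethrin is the lowest mark in 13 of 31 subunits.

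Genes of G2 and mitosis had 4 higher and 15 lower of 19, beside 50.7% higher over all genes. Their median log2 fold of -0.08 was inside the range of the other insecticides (-0.18 to 0.02). Deltamethrin was the lowest of the 7 libraries in 2 of the 19 (10.5%), near the 14.6% of all genes, while control was the highest in 5, and against the median of the 6 other libraries the deltamethrin median was -0.04. Cdk1, the mitotic kinase, went against the group with 32.8 FPKM with deltamethrin, against 19.9 to 26.9 with the other insecticides and 18.9 in control, and was the highest of the 7 libraries. Aurkb, the kinase of the chromosomal passenger complex, had 31.1 FPKM with deltamethrin, against 28.2 to 43.5 with the other insecticides and 18.1 in control, where control was the low library. Genes of S phase had 4 higher and 13 lower of 17 with a median of -0.06, inside -0.20 to -0.01. In these, deltamethrin was the lowest library in 2 of 17 (11.8%) and control the highest in 5, and the deltamethrin median against the 6 other libraries was -0.02. Dut, which removes dUTP from the nucleotide pool, was 2-fold lower at 34.5 FPKM with deltamethrin, against 66.4 with chlorpyrifos, 70.5 with DDT, 60.6 with rotenone, 79.0 with carbaryl, 74.1 with imidacloprid and 76.0 in control (log2 fold -1.12), below every other library.

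Purine and pyrimidine synthesis had a median log2 fold of 0.00, with 8 higher and 9 lower of 17, and Paics was the 1 member at 2-fold. Pfas, which acts earlier in the same path, had 11.3 FPKM with deltamethrin, against 11.3 to 15.7 with the other insecticides and 14.2 in control. Cholesterol synthesis had 9 higher and 4 lower of 13 and a median of 0.04. Stard4, a sterol carrier, was 2-fold lower at 4.72 FPKM with deltamethrin, against 3.64 to 20.2 with the other insecticides and 20.5 in control, a value inside the exposed range.

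Of 40 motile cilia genes 8 were usable, 18 were below the minimum, 12 had no event under their name and 2 had start and end sums that disagreed. The usable genes had 4 higher and 4 lower with a median log2 fold of 0.04, and 2 were 2-fold lower, beside 0.983% of all genes. Foxj1 and Cfap126, a ciliary microtubule protein at 0.375 FPKM with deltamethrin, against 0.915 to 1.19 with the other insecticides and 1.92 in control, were the 2 that were 2-fold lower, and both were below every other library. Primary cilium and intraflagellar transport genes had 14 higher and 10 lower of 24 with a median of 0.02, and Ift81, an intraflagellar transport protein, had 3.47 FPKM with deltamethrin, against 4.03 to 7.74 with the other insecticides and 6.66 in control.

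Vim, an intermediate filament of progenitors and radial glia, had 1145 FPKM with deltamethrin, against 987 to 1221 with the other insecticides and 1062 in control, and Dcx, a microtubule protein of young neurons, had 27.0 FPKM with deltamethrin, against 22.7 to 25.9 with the other insecticides and 26.4 in control. Of the defining astrocyte markers, S100b was listed at 0 in both libraries. Gfap was listed at 0 with deltamethrin, and in control it had 0.638 FPKM at its start and was listed at 0 at its end. Aqp4 had 0.422 FPKM at its start and 0.509 FPKM at its end with deltamethrin, and was listed at 0 in control. Pou5f1 and Nanog, the stem cell factors, were listed at 0 in both. A listed 0 in these tables does not show that a gene's RNA was low, since Ndufa13, a subunit of complex I, was also listed at 0 in every library other than imidacloprid. Glul, glutamine synthetase, which progenitors also express, had 143 FPKM with deltamethrin, against 122 to 157 with the other insecticides and 149 in control. In bulk RNA, fewer cells of a type and less RNA per cell cannot be told apart.

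Neuron markers had 4 higher and 3 lower of 7 with a median log2 fold of 0.03 and a summed level of 251 FPKM with deltamethrin, 239 to 278 with the other insecticides and 258 in control. Progenitor markers had 4 higher and 4 lower of 8 and a summed level of 1368 FPKM with deltamethrin, 1215 to 1454 with the other insecticides and 1295 in control. Astrocyte markers had 2 higher and 3 lower of 5, and a summed level of 293 FPKM with deltamethrin, 249 to 309 with the other insecticides and 293 in control. Neither the sums nor the medians separated deltamethrin from the others. Only 7 of 16 neuron, 8 of 19 progenitor and 5 of 19 astrocyte markers were usable. Vim supplied most of the progenitor sum and Glul a large part of the astrocyte sum, at the levels given above. The sums therefore do not measure the proportions of cell types. Mesenchymal and fibroblast markers, which would show other lineages in the culture, had 5 higher and 4 lower of 9 and a summed level of 173 FPKM with deltamethrin, 140 to 182 with the other insecticides and 168 in control. Of 14 endothelial and microglial markers 11 had no event under their name.

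Oligodendrocyte lineage markers gave 4 usable genes of 18, 1 higher and 3 lower, with a median log2 fold of -0.35. That median was inside the range of the other insecticides (-0.41 to -0.04), the summed level was 4.69 FPKM with deltamethrin, 3.61 to 6.25 with the other insecticides and 6.28 in control, and Pdgfra had no event under its name. Cspg4, the NG2 proteoglycan of precursors, had 0.85 FPKM with deltamethrin, against 0.784 to 1.35 with the other insecticides and 1.46 in control. Its deltamethrin value was below control and inside the range of the other insecticides. Genes of the JAK-STAT and BMP paths to glial fate had 4 higher and 7 lower of 11 with a median of -0.02, and Jak2, a cytokine receptor kinase, had 12.4 FPKM with deltamethrin, against 13.3 to 18.1 with the other insecticides and 14.4 in control. Genes of the Notch pathway had 8 higher and 7 lower of 15 with a median of 0.05. Neurog2, a proneural transcription factor, had 1.42 FPKM with deltamethrin, against 1.02 to 1.63 with the other insecticides and 0.723 in control, and Hes5, a Notch target that holds progenitors undifferentiated, had 6.3 FPKM with deltamethrin, against 6.1 to 9.98 with the other insecticides and 8.23 in control. Genes of neurite growth and the cytoskeleton had 7 higher and 11 lower of 18 with a median of -0.01, and Dpysl3, a collapsin response mediator, had 50.1 FPKM with deltamethrin, against 43.5 to 57.5 with the other insecticides and 38.2 in control. Sox2, a progenitor transcription factor, had 16.4 FPKM with deltamethrin, against 20.9 to 28.3 with the other insecticides and 24.7 in control. Neither event of Sox2 has an annotated inner boundary, but only annotated transcripts of 2 or more exons were used for this match. Whether these lines come from Sox2 RNA was not tested.

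Gap43, the growth cone protein of extending axons, had a large difference in which start held its FPKM. Counting all its lines, Gap43 stood at 160.2 FPKM with deltamethrin, against 195 with chlorpyrifos, 182 with DDT, 153 with rotenone, 171 with carbaryl, 187 with imidacloprid and 180.3 in control (log2 fold -0.17). With deltamethrin, 6.59% of its start FPKM was on the annotated first exon, chr16:42340473-42340651 on the minus strand (10.6 FPKM), and 93.4% was on an unannotated one just upstream, chr16:42340669-42340943 (149.7 FPKM). The second start was listed at 0 in the 6 other libraries. Starts gained by 10 points or more, with every other library under 1%, numbered 72 with deltamethrin. In each of the 6 other libraries they numbered 72 to 93. Whether Gap43 transcripts began elsewhere was not tested. The end event of Gap43 had 160.2 FPKM with deltamethrin and 180.3 FPKM in control. With the unannotated start left out, Gap43 had 85.4 FPKM with deltamethrin and 180.3 FPKM in control, a log2 fold of -1.07. That 85.4 FPKM is the mean of 10.6 FPKM at the annotated start and 160.2 FPKM at the end, which disagree widely. Whether Gap43 passes 2-fold therefore depends on how the unannotated start is counted.

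Over all kinds of events, 6367 of 56312 (11.3%) differed 2-fold or more between deltamethrin and control, against 11.5% to 11.8% for the other insecticides. The share was 5.66% for transcript ends, 11.7% for starts, 10.8% for alternative exons, 12.7% for skipped exons, 13% for retained introns, 14.3% for skipped runs of exons and 14.8% for runs of retained introns. To separate the use of a structure from the level of its gene, each event was also expressed as a share, its FPKM as a percent of the event and its alternatives together, where these came to 5 FPKM or more in every library. Shares differed by 20 points or more from control in 530 of 5021 skipped exons (10.6%), where the other insecticides gave 10.1% to 10.6%. For retained introns it was 98 of 1631 (6.01%), below the 6.68% to 7.73% of the other insecticides, and the remaining kinds were at 8.33% (skipped runs of exons), 6.19% (runs of retained introns), 9.58% (alternative exons), 9.03% (starts) and 5.23% (ends). The exposed libraries also share the 1 control library, so these percentages have that library in common.

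Deltamethrin lay 10 points or more outside the range of the 6 other libraries in 169 of 5021 skipped exons (3.37%), against 164 to 212 for each other library taken the same way. The following exons are shown because their share set the deltamethrin library apart and each is wholly coding in an annotated transcript. Sequences are exons of GENCODE transcripts of the GRCm38 build, matched by the coordinates of the deposited events, written 5′ to 3′ on the strand of the gene, with the 3 bases at each edge of the exon in capitals, where it is joined to its neighbours. The exons lie in Clk4 (chr11:51273078-51273168, plus strand, 91 bases), Sars (chr3:108427861-108427932, minus strand, 72 bases), Obsl1 (chr1:75492067-75492342, minus strand, 276 bases), Pard3 (chr8:127410729-127410773, plus strand, 45 bases), Myef2 (chr2:125098797-125098847, minus strand, 51 bases) and Gria2 (chr3:80691320-80691434, minus strand, 115 bases).
Clk4: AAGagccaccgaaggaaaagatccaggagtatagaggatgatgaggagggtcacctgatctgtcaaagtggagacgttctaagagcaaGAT
Sars: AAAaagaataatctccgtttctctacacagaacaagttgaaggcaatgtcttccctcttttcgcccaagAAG
Obsl1: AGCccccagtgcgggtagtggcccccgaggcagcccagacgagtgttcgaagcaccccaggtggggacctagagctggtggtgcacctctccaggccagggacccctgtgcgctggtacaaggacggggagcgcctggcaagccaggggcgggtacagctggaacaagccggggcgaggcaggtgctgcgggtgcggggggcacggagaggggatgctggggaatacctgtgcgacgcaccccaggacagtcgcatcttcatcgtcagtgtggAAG
Pard3: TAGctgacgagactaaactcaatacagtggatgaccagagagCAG
Myef2: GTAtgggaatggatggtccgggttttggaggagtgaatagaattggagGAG
Gria2: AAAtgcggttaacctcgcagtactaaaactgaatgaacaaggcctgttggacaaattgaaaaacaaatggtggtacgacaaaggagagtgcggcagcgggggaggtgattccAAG

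Clk4 encodes a kinase that phosphorylates SR splicing factors. Inclusion of its 91-base exon was 14.9% with deltamethrin, against 49.3% with chlorpyrifos, 59.1% with DDT, 78.4% with rotenone, 50.3% with carbaryl, 58.4% with imidacloprid and 99.98% in control. The length is not a multiple of 3, so including or skipping the exon changes the reading frame of what follows. The exon pair had 5.94 FPKM in all with deltamethrin and 12.5 FPKM in control, which is close to the minimum used. All the exposed libraries were below control here, and deltamethrin was the lowest.

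Sars encodes the seryl-tRNA synthetase of the cytosol. Its 72-base exon was included in 89.9% with deltamethrin, against 25.6% with chlorpyrifos, 10.8% with DDT, 26.9% with rotenone, 11.3% with carbaryl, 36.4% with imidacloprid and 11.3% in control. The exon keeps the reading frame, and the pair was well expressed at 47.98 FPKM with deltamethrin and 44.1 FPKM in control. Obsl1, a cytoskeletal adaptor of the obscurin family, included its 276-base exon in 74.7% with deltamethrin, against 24.1% with chlorpyrifos, 26.2% with DDT, 15.9% with rotenone, 9.92% with carbaryl, 22.0% with imidacloprid and 2.47% in control. In both, deltamethrin was high and control at or near the low end.

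Exons whose share was low with deltamethrin included those of Pard3, Myef2, Nrip2 and Gria2, named after their values were seen. Pard3, a scaffold of cell polarity, had inclusion of its 45-base exon at 0% with deltamethrin, against 84.0% with chlorpyrifos, 25.3% with DDT, 40.4% with rotenone, 68.5% with carbaryl, 48.8% with imidacloprid and 56.9% in control. Myef2, an RNA-binding repressor of the myelin basic protein gene, had its 51-base exon at 1.49% with deltamethrin, against 42.5% with chlorpyrifos, 58.3% with DDT, 23.7% with rotenone, 20.5% with carbaryl, 49.3% with imidacloprid and 63.0% in control. The inclusion line of Pard3 was listed at 0 with deltamethrin. Both exons are multiples of 3, both varied widely among the other libraries, and deltamethrin was below all of them. Nrip2, a nuclear receptor cofactor, was steadier in the other libraries, with its 45-base exon at 35.4% with deltamethrin, against 93.9% to 95.9% with the other insecticides and 95.6% in control, while the pair came to 32.6 FPKM with deltamethrin and 6.997 FPKM in control. The inclusion line of Nrip2 was higher with deltamethrin, at 11.6 FPKM against 6.69 FPKM in control, so only its share was lower.

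Gria2 encodes the AMPA receptor subunit GluA2, whose flip and flop forms come from a pair of neighbouring exons used one at a time. The exon shown is one of 2 annotated exons of 115 bases, and its share against skipping was 23.3% with deltamethrin, against 35.2% with chlorpyrifos, 53.5% with DDT, 62.2% with rotenone, 60.2% with carbaryl, 41.9% with imidacloprid and 82.4% in control. The summed FPKM of this exon over all transcripts was 13.3 with deltamethrin, 9.99 to 19.8 with the other insecticides and 14.3 in control. The share and the summed level of the same exon thus differ in whether deltamethrin stands apart.

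Of the exons named by the rule that are not wholly coding, Qrich1 included a 60-base exon in 92.7% with deltamethrin, against 5.9% to 12.2% with the other insecticides and 8.79% in control. Setd5, a chromatin regulator, included a 225-base exon in 74.1% with deltamethrin, against 11.2% to 42.4% with the other insecticides and 1.15% in control, and a longer run that begins with the same exon in 72.6% with deltamethrin, against 0% to 24.0% with the other insecticides and 0% in control. Zc3h4, a zinc finger protein, included a 62-base exon in 72.9% with deltamethrin, against 0% to 60.7% with the other insecticides and 0% in control, where chlorpyrifos was nearly as high.

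Among runs of exons, 27 of 660 (4.09%) lay 10 points or more outside the range with deltamethrin, against 24 to 36 in each other library. Stam, an adaptor of endosomal sorting, included its run in 23.0% with deltamethrin, against 100% with the other insecticides and 100% in control. Map4, a microtubule-associated protein, included its run in 99.5% with deltamethrin, against 4.78% to 57.7% with the other insecticides and 44.4% in control, at a pair total of 69.2 FPKM with deltamethrin and 77.7 FPKM in control. Ctbp1, a transcriptional corepressor, had 34.7% with deltamethrin, against 58.9% to 98.9% with the other insecticides and 95.2% in control, Gtf2i, a transcription factor, had 64.8% with deltamethrin, against 0% to 46.9% with the other insecticides and 0% in control, and Apbb1, an adaptor of the amyloid precursor protein, had 100% with deltamethrin, against 66.6% to 86.0% with the other insecticides and 40.3% in control. These genes did not share a direction.

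Among retained introns, 59 of 1631 (3.62%) were outside the range with deltamethrin, against 40 to 64 in each other library. Nars, the asparaginyl-tRNA synthetase, retained an intron in 83.1% with deltamethrin, against 9.07% to 34.2% with the other insecticides and 12.7% in control. Rexo1 retained one in 52.9% with deltamethrin, against 0% with the other insecticides and 0% in control, and Haghl in 48.8% with deltamethrin, against 0.408% to 8.16% with the other insecticides and 0.00855% in control. For Rpl21, a ribosomal protein with processed copies elsewhere in the genome, the share was 55.8% with deltamethrin, against 0% to 34.0% with the other insecticides and 0% in control, and reads of those copies could enter it. Entr1 had 66.0% with deltamethrin, against 13.1% to 53.6% with the other insecticides and 20.8% in control, Hdac6, a cytoplasmic deacetylase of tubulin, had the 1 run of introns outside the range (1 of 194, 0.515%) at 31.4% with deltamethrin, against 0% to 3.46% with the other insecticides and 0% in control, and Zfp523 was low at 1.44% with deltamethrin, against 12.6% to 97.8% with the other insecticides and 50.9% in control.

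Alternative exons, which differ at 1 boundary, lay outside the range in 290 of 6607 events (4.39%) with deltamethrin, against 240 to 289 in each other library. Mier1, a transcriptional corepressor, used a 74-base form in 99.2% with deltamethrin, against 0% to 9.98% with the other insecticides and 0% in control, in place of a 77-base form that differs by 3 bases. Asap1, an ARF GTPase-activating protein, used the 123-base form of an exon, and not the 87-base form, in 30.5% with deltamethrin, against 46.3% to 96.3% with the other insecticides and 99.9% in control. Anapc5, a subunit of the anaphase-promoting complex, used a 143-base form in 82.8% with deltamethrin, against 37.8% to 44.9% with the other insecticides and 21.8% in control, at a total of 111 FPKM with deltamethrin and 103 FPKM in control. The same kind of exchange had a size of 73.0 points in Zfp46, 68.3 points in Mrpl3, a mitochondrial ribosomal protein, and 64.6 points in another exon of Nrip2.

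Transcript starts with deltamethrin were 10 points or more outside the range in 409 of 15839 (2.58%), fewer than the 448 to 519 of each other library, and ends in 67 of 4474 (1.5%), against 73 to 106. Among the starts that were gained in this way, 49 of 258 had no annotated inner boundary, and among the ends 15 of 36. Of all tested starts 10.1% had none, and of all tested ends 16.2%. In the 6 other libraries 279 to 323 starts were gained, 52 to 73 of them unannotated, and 40 to 65 ends, 15 to 26 of them unannotated. New unannotated starts and ends were therefore a feature of every library.

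Sptan1, which encodes the alpha chain of non-erythroid spectrin, began at an annotated upstream exon, chr2:29965560-29965785, in 95.5% with deltamethrin, against 6.98% with chlorpyrifos, 9.64% with DDT, 4.72% with rotenone, 6.19% with carbaryl, 7.98% with imidacloprid and 1.93% in control. Its total was steady at 84.3 FPKM with deltamethrin and 78.5 FPKM in control. Dhcr7, the last enzyme of cholesterol synthesis, used one of its annotated starts in 97.9% with deltamethrin, against 9.9% with chlorpyrifos, 7.64% with DDT, 5.62% with rotenone, 3.31% with carbaryl, 60.1% with imidacloprid and 8.28% in control. G6pc3, a glucose-6-phosphatase, used a downstream start in 99.8% with deltamethrin, against 1.91% to 34.6% with the other insecticides and 3.77% in control. Psph, which makes serine from phosphoserine, used a downstream start in 89.5% with deltamethrin, against 0% to 0.741% with the other insecticides and 0% in control.

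Eci1, an isomerase of mitochondrial fatty acid oxidation, began at an unannotated form in 91.1% with deltamethrin, against 0% with the other insecticides and 0% in control. It differs from the annotated first exon only at the inner boundary. Among the ends, Slc25a4, the ADP/ATP carrier of the mitochondrial inner membrane, ended at an unannotated 89-base piece in 90.9% with deltamethrin, against 0% with the other insecticides and 0% in control, at a total of 409 FPKM with deltamethrin and 321 FPKM in control. Ndufs4, a subunit of complex I, ended at an unannotated 45-base piece in 93.8% with deltamethrin, against 0% with the other insecticides and 0% in control. Akr1e1 and Rhobtb2 likewise ended at unannotated pieces of 22 and 26 bases with deltamethrin, at 98.5% and 97.3%, and at 0% in the 6 other libraries. Farsb, the beta chain of the phenylalanyl-tRNA synthetase, used an annotated earlier end in 97.9% with deltamethrin, against 0.338% to 11.3% with the other insecticides and 0.763% in control, and Tnrc18 one in 73.1% with deltamethrin, against 0% to 1.41% with the other insecticides and 2.81% in control. In these genes most of the FPKM of the deltamethrin library was on 1 structure that was low or listed at 0 in the other libraries.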

How the data were processed

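Total RNA of 7 libraries was sequenced, 1 per treatment. The submitters' processing notes name HISAT2 2.0.1, cutadapt 1.9.1 and bcl2fastq 2.17.1.14, and the GRCm38 build. Which tool assembled transcripts and computed FPKM is not given in the sources at hand. The authors deposited 1 table per library of transcript events, with the FPKM of each and only events above 0 listed, so an unlisted event counts as listed at 0. Whether structures were assembled for each library or for all together is not stated there either.

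Repeated lines (5484 for deltamethrin, 5467 for control) were dropped. Start and end FPKM were summed per gene by the deposited locus name, leaving out lines that the GENCODE annotation places only in another gene (8.06% of start and 4.99% of end FPKM). A gene was used when its start and end sums differed by at most 0.3 on average on the log2(FPKM + 1) scale, neither sum was under 5% of the other, and the mean was at least 1 FPKM. These limits applied to averages over the 7 libraries, so 1 library of a used gene can still have a sum of 0. Folds used a pseudocount of 1, and 2-fold was the limit. Shares are percents of the FPKM of an event and its alternatives, with at least 5 FPKM in every library and a limit of 20 points. Calculations used Python 3.11.15, pandas 2.3.3, numpy 2.4.6 and matplotlib 3.10.9. The gene steps were run on simulated data with less noise than between these libraries and the same noise on all events of a gene. The check of shares only counted shifts that were added to shares, so it does not test how shares were formed.

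Named genes were up to 10 in each direction by fold, of at least 5 FPKM, 2-fold from control and outside the range of the 6 other libraries, up to 4 of the largest folds of each gene list, the listed sodium channels (a few listed genes are not reported here), and up to 6 events of each kind by share, at least 10 points outside the range. Other genes were named after their values were seen. The members and gene lists were chosen with earlier results of these data known. Alternatives covered the pseudocount, the filters, the naming of genes, the centring and the baseline. With 1 library per group there is no test, no SD and no p-value.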

Additional observations from a re-analysis of the deposited data

How the results depend on the processing

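With 1 library per treatment and unknown depth, single-gene differences here have no replicate check, and values under a few FPKM are the least certain. No paired analysis was possible because each group has 1 library. The 103 genes at 2-fold (41 higher, 62 lower) became 209 (110 higher, 99 lower) with a pseudocount of 0.1 and 40 (18 higher, 22 lower) with one of 5. Without the requirement that start and end sums agree there were 226 (100 higher, 126 lower). Against the median of the 6 other libraries there were 61 (10 higher, 51 lower), 40 of them shared with the 103. Among genes with 1 start and 1 end event, an alternative chosen after seeing the data, there were 14. A minimum of 5 FPKM, no minimum, starts alone, ends alone, centring on the median, naming by annotation, and naming by locus name with lines of other genes (chosen after seeing the data) gave 75 to 126. The 6367 events at 2-fold became 2807 with a minimum of 5 FPKM. The 695 of 7506 paired events at 20 points (9.26%) became 1558 of 11669 (13.4%) with a minimum of 1 FPKM, 341 of 4597 (7.42%) with 10 FPKM, and 419 of 7506 (5.58%) against the median of the 6 other libraries. The 46 genes 1.5-fold outside the range became 12 at 2-fold and 76 with a pseudocount of 0.1. Of 28 gene group medians, 3 were at least 0.1 in size against control and 1 with that other baseline, under which immediate early genes turned to -0.069 and the integrated stress response to -0.015. Of 309 named gene folds under alternatives 273 moved little, 36 moved and 0 reversed. Only genes 2-fold from control could count as reversed. These also lay outside the range of the 6 other libraries, so a reversal was nearly precluded and the 0 tests little. Of 160 group medians under alternatives 158 moved little and 2 reversed, where only the 3 groups at least 0.1 in size could count as reversed. Why the counts moved was not tested.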

Other observations

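Other highly expressed groups were examined after their values were seen. Among 23 usable subunits of respiratory complexes III to V, deltamethrin was the lowest of the 7 libraries in 7 (30.4%) and the highest in 2 (8.7%). Among 42 usable cytosolic ribosomal protein genes it was the lowest in 12 (28.6%) and the highest in 1 (2.38%), against 20.4% lowest and 8.28% highest for all genes with a mean of 50 FPKM or more. Ribosomal protein genes have many processed copies in the genome, which can share reads with them. In the control library 9 of the 42 were lowest (21.4%), and in the imidacloprid library also 9.

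With deltamethrin, 169 events of 5 FPKM or more were listed in no other library, 34 of them starts and 21 ends. Each other exposed library had 133 to 178 such events and control had 180. At the gene level Anp32b-ps1, Gm9333 and Ing2 were listed above 0 only with deltamethrin by this rule, and these 3 genes were named after their values were seen.

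Splicing regulators had 8 higher and 10 lower of 18 with a median log2 fold of -0.03 between deltamethrin and control. Rsrc1, a serine and arginine rich splicing protein, had 11.3 FPKM with deltamethrin, against 2.39 to 13.6 with the other insecticides and 2.44 in control, and Tardbp, an RNA-binding protein that regulates splicing, had 60.1 FPKM with deltamethrin, against 22.4 to 132 with the other insecticides and 119 in control. Both were inside the range of the exposed libraries. Dlx6, a homeobox gene of forebrain interneurons, had 4.72 FPKM with deltamethrin, against 2.3 to 3.06 with the other insecticides and 2.64 in control, and was named after its values were seen.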
